A study of Macaca mulatta with 4 samples.

Results

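The genes described here are 9 genes of compaction and epithelial sealing, chosen by name: the tight junction genes CLDN4, CLDN12, OCLN, F11R and TJP1, the adhesion gene CDH1, and the keratin genes KRT8, KRT18 and KRT19. Of the 9, 8 were matched to an Ensembl macaque gene identifier among the 21314 in the count table, and all 8 were among the 13227 genes with enough reads to be tested. KRT8 had no matched identifier and was not analysed here. The study sequenced RNA of rhesus macaque (Macaca mulatta) morulae, with 2 libraries labelled AG and 2 labelled GG. The series concerns genomic imprinting in embryos before implantation. AG stands for androgenetic embryos, whose nuclear genome comes from the father, and GG for gynogenetic embryos, whose nuclear genome comes from the mother. The labels give no treatment, embryo age, sex or culture time. They also do not make clear how many embryos entered each library or whether replicates had separate parents, so the p-values reflect only how much these libraries varied, which may be technical.

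At the morula stage the loosely attached cells of the embryo flatten against each other in compaction, which depends on the calcium-dependent adhesion protein E-cadherin. The outer cells then build tight junctions, in which claudins and occludin seal the space between cells and ZO proteins tie that seal to the actin cytoskeleton. These outer cells become trophectoderm, the first epithelium of the embryo, which expresses simple-epithelial keratins and has to be tight before the fluid-filled cavity of the blastocyst can form.

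The libraries held 14129608 (AG replicate 1), 19108735 (AG replicate 2), 21335918 (GG replicate 1) and 29733977 (GG replicate 2) estimated counts. Levels are in CPM, with the total of each library, adjusted by TMM (a scaling that assumes most genes do not differ), as denominator, and the precision of low values covers counting error only. Replicates resembled each other more than libraries of different groups did, with Spearman correlations over genes of 0.935 (AG pair), 0.959 (GG pair) and 0.882 to 0.908 (AG with GG). GG and AG differed widely: with edgeR, 12.9% of all tested genes had an adjusted p under 0.05, which is what called means here. By direction, 6.34% were called on the GG side and 6.58% on the AG side, and 51.1% of tested genes had a positive log2 fold change, GG minus AG. The 2 groups of libraries did not overlap in 64.1% of tested genes. The embryo markers POU5F1, NANOG and SALL4 were detected in every library, at 181 to 479 CPM, 25.04 to 150.5 CPM and 70.2 to 199 CPM; of 8 tested embryo markers, 2 were called higher in GG and 3 higher in AG.

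Of the 8 genes, 5 were called higher in GG (CLDN4, KRT18, CDH1, F11R and TJP1), where 6.34% of all tested genes were. CLDN12 was the only 1 called higher in AG, where 6.58% of all tested genes were, and 2 were not called (OCLN and KRT19). The libraries of the groups did not overlap in any of the 8, against 64.1% of tested genes. The median log2 fold change, GG minus AG, was 1.36 over the 8 and 0.04 over all tested genes. The genes were chosen with earlier results of these data known, so these contrasts are a description and not independent evidence. The sum of the 8 genes was 366 and 321 CPM in AG and 619 and 843 CPM in GG. In RNA from whole embryos, fewer cells expressing a gene and less RNA per cell cannot be told apart, which holds for every level given here.

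**Figure D1:**
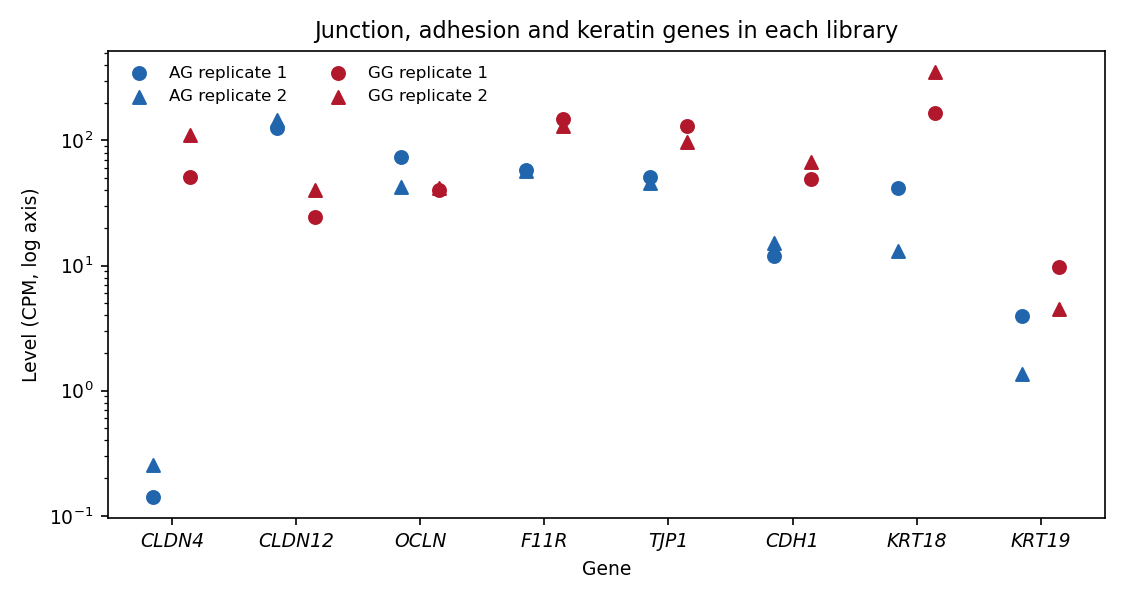
Level of each of the 8 genes (horizontal axis) in each library, in CPM on a log axis; blue points are AG and red points GG, circles replicate 1 and triangles replicate 2. CLDN4 lies under 0.3 CPM in both AG libraries and above 50 CPM in both GG libraries, CLDN12 lies lower in GG, and the OCLN points of AG replicate 2 and of both GG libraries nearly coincide.

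The claudins are membrane proteins whose outer loops form the seal of the tight junction, and the 2 claudins among these genes moved in opposite directions. CLDN4 (ENSMMUG00000044653), a claudin of tight epithelia, had 2 and 5 counts in AG replicates 1 and 2 and 1079 and 3231 counts in GG replicates 1 and 2. These are levels of 0.142 and 0.254 CPM in AG and 51.2 and 110.2 CPM in GG. Both AG libraries were thus close to the level of 3 counts (0.214 and 0.152 CPM), and the 2 GG libraries differed from each other by 1.10 on the log2 scale, where the median tested gene differed by 0.36. The log2 fold change was 8.58 ± 0.68 SE (adjusted p = 0.00610), larger in size than that of 99.3% of tested genes.

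CLDN12 (ENSMMUG00000023657), a claudin that lacks the PDZ-binding end through which other claudins attach to ZO proteins, went the other way. It stood at 126 and 147 CPM in the AG libraries and at 24.6 and 39.8 CPM in the GG libraries. All AG values were above all GG values, with means of 136 ± 14.7 and 32.2 ± 10.8 CPM (SD, n = 2). CLDN12 was 4.23-fold higher in AG (log2 fold change -2.08 ± 0.35 SE, adjusted p = 0.0261).

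Set against each other within a library, CLDN4 had 0.00142 and 0.00191 reads per read of CLDN12 in the AG libraries and 2.09 and 2.77 in the GG libraries. The gene lengths are not part of these ratios, which therefore compare libraries and not the 2 genes. No test was made of them, since 2 libraries against 2 allow no exact permutation p below 0.3333.

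The 2 tight junction membrane proteins outside the claudins differed in their calls. F11R (ENSMMUG00000001996), which encodes the junctional adhesion molecule JAM-A, stood at 57.8 and 57.4 CPM in AG and at 149.6 and 129 CPM in GG. The AG libraries were almost equal and the GG libraries were both higher, with a log2 fold change of 1.28 ± 0.26 SE (adjusted p = 0.0372). OCLN (ENSMMUG00000006216), which encodes occludin, stood at 73.5 and 42.3 CPM in AG and at 39.8 and 41.9 CPM in GG. AG replicate 2 was thus close to both GG libraries, and AG replicate 1 alone was high. OCLN was not called (log2 fold change -0.50 ± 0.37 SE, adjusted p = 0.396), and the 95% interval of the difference ran from -1.41 to 0.41. Without AG replicate 1 the log2 fold change was -0.06, and without AG replicate 2 it was -0.86 (adjusted p = 0.913 and 0.0648).

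TJP1 (ENSMMUG00000017878) encodes ZO-1, the scaffold that binds claudins, occludin and JAM-A on the inner side of the membrane. It stood at 50.8 and 45.3 CPM in AG and at 129.7 and 97.0 CPM in GG. Both GG libraries were higher, with a log2 fold change of 1.24 ± 0.30 SE and an adjusted p of 0.0497, just under the threshold. The call ended with DESeq2 size factors (adjusted p = 0.0530), upper-quartile factors (0.0520) and a replicate block, which adds the replicate number to the model (0.0555), while the log2 fold change stayed between 1.21 and 1.25. OCLN had 1.45 and 0.935 reads per read of TJP1 in the AG libraries, and 0.307 and 0.432 in the GG libraries.

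CDH1 (ENSMMUG00000011850), which encodes E-cadherin, stood at 12.0 and 15.1 CPM in AG and at 49.6 and 67.7 CPM in GG. The replicates differed by 0.34 on the log2 scale in AG and 0.45 in GG, where the medians over tested genes were 0.59 and 0.36. The groups were well apart, with means of 13.6 ± 2.24 and 58.6 ± 12.8 CPM (SD, n = 2). CDH1 was 4.32-fold higher in GG (2.11 ± 0.35 SE on the log2 scale, adjusted p = 0.0261). CTNNB1, which encodes the beta-catenin that binds the E-cadherin tail, stood at 93.1 and 98.9 CPM in AG and 116 and 117 CPM in GG, which did not pass the test (log2 fold change 0.28 ± 0.25 SE, 95% interval -0.34 to 0.89). CDH1 accordingly had 0.129 and 0.153 reads per read of CTNNB1 in the AG libraries and 0.428 and 0.580 in the GG libraries.

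KRT18 and KRT19 are acidic keratins of simple epithelia, which form filaments with the basic keratin KRT8. KRT18 (ENSMMUG00000031911) stood at 41.8 and 13.2 CPM in AG and at 165 and 352 CPM in GG. All GG values were higher, but replicates were far apart: the difference between them was 1.66 on the log2 scale in AG and 1.09 in GG, where the medians over tested genes were 0.59 and 0.36. KRT18 was 9.43-fold higher in GG (3.24 ± 0.68 SE on the log2 scale, adjusted p = 0.0386). Its size depended on the libraries used, with log2 fold changes of 4.29 without AG replicate 1, 2.62 without AG replicate 2 and 2.55 without GG replicate 2 (adjusted p = 0.0105, 0.0176 and 0.193). KRT18 has processed copies in primate genomes, so its estimated counts are uncertain.

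KRT19 (ENSMMUG00000018653) had the fewest reads of the 8 genes in GG, with 55 and 27 counts in AG and 206 and 131 in GG. Its levels were 3.92 and 1.37 CPM in AG and 9.78 and 4.47 CPM in GG, so that AG replicate 1 came close to GG replicate 2. KRT19 was not called (log2 fold change 1.44 ± 0.75 SE, adjusted p = 0.2496), and the 95% interval from -0.43 to 3.30 includes both no difference and the value of KRT18. KRT19 had 0.0945 and 0.106 reads per read of KRT18 in AG and 0.0594 and 0.0127 in GG. In AG both keratins were higher in replicate 1, whereas in GG KRT18 was higher in replicate 2 and KRT19 in replicate 1.

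**Figure D2:**
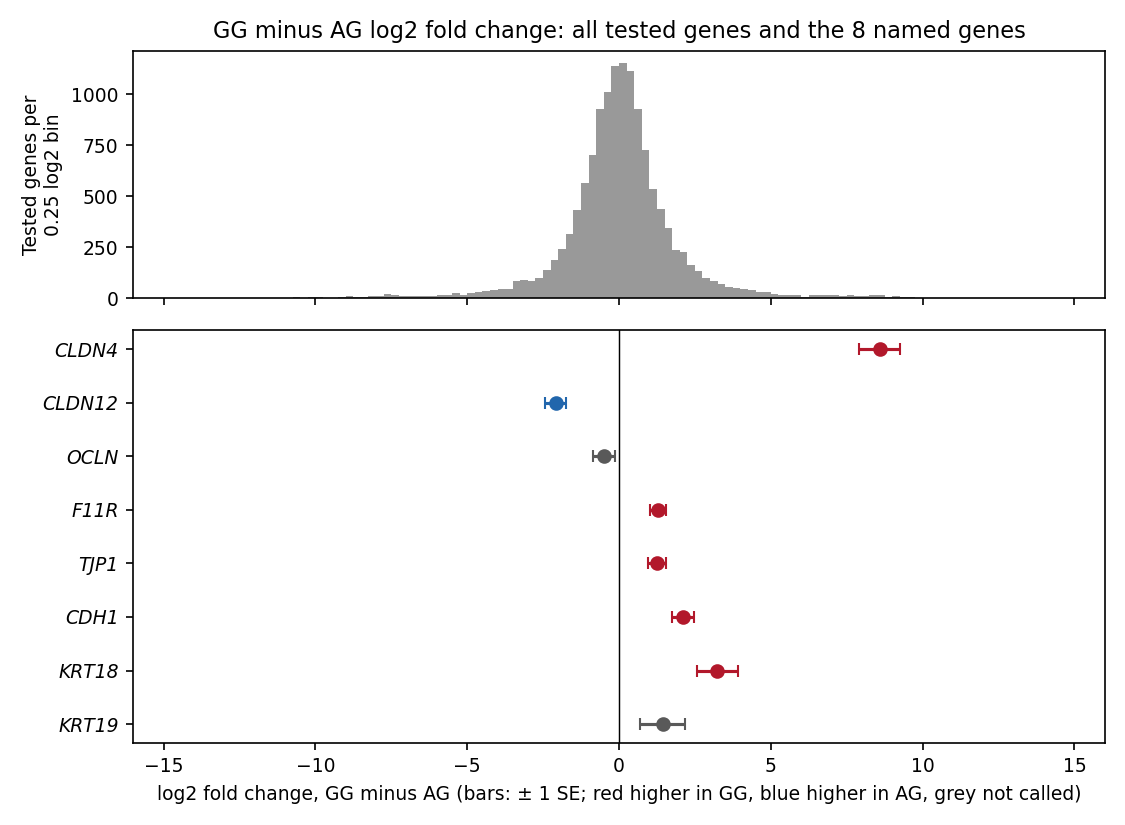
The upper panel counts all 13227 tested genes by log2 fold change, GG minus AG (horizontal axis); the lower panel gives the 8 genes on the same axis with bars of 1 SE either side, red for genes called higher in GG, blue for higher in AG and grey for not called. CLDN4 at 8.58 lies far out in the tail, KRT18 follows at 3.24, and F11R and TJP1 lie at 1.28 and 1.24.

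Leaving out 1 library at a time showed how far these calls rest on single libraries. CLDN4 was called under all 12 alternative settings, with log2 fold changes from 7.90 (without GG replicate 2) to 9.08 (without AG replicate 2) and adjusted p of at most 0.0357. Without GG replicate 1 or GG replicate 2, CLDN4 alone among the called genes kept its call. Most calls over all tested genes were also lost there, so this loss is not particular to the genes described here. In these fits the AG pair alone gave the spread, and the lone GG library was assumed to vary like it. There the adjusted p was 0.194 and 0.125 for CLDN12, 0.136 and 0.215 for CDH1, 0.362 and 0.251 for TJP1, 0.297 and 0.255 for F11R, and 0.0927 and 0.193 for KRT18. All 6 stayed called without either AG library, and none changed direction under any of the 12 settings.

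**Figure D3:**
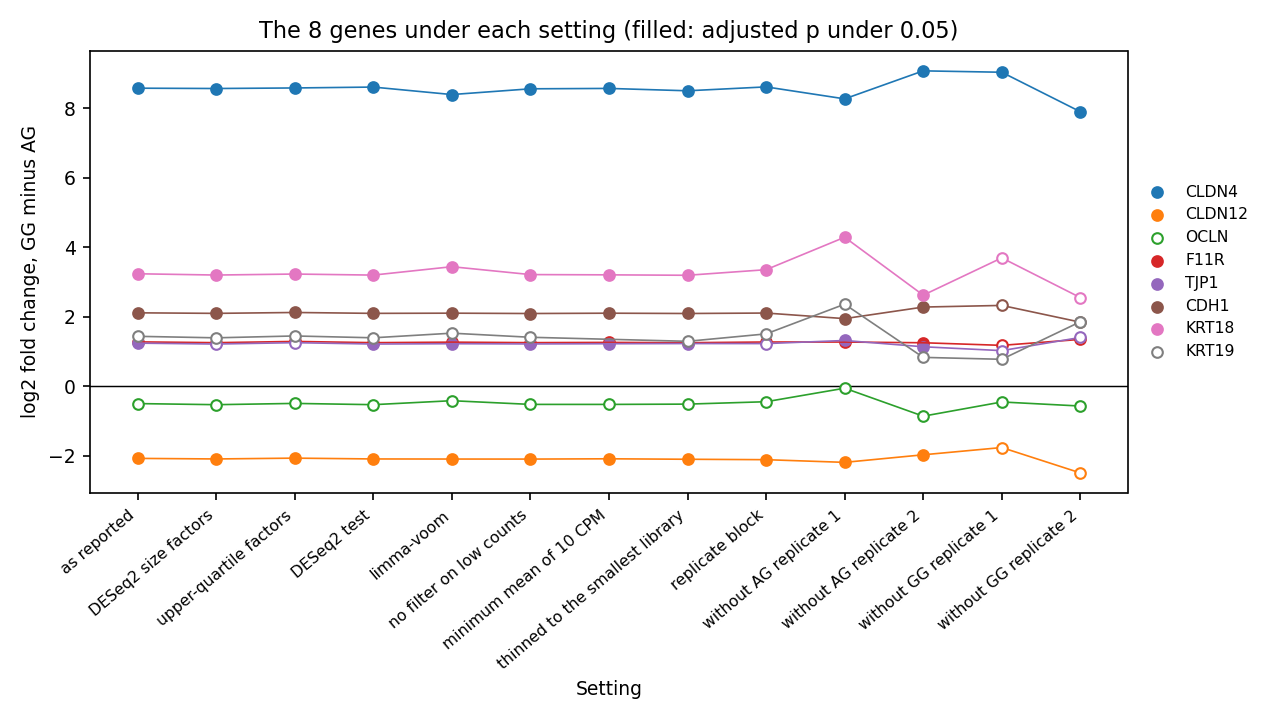
Log2 fold change, GG minus AG, of each of the 8 genes as reported and under the 12 alternative settings (horizontal axis); filled points have an adjusted p under 0.05 and open points do not. The lines of CLDN4, CLDN12, CDH1, F11R and TJP1 are nearly flat up to the settings that leave out a library, KRT18 and KRT19 swing most when an AG library is left out, and only CLDN4 keeps a filled point without a GG library.

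The wider claudin family showed which genes supplied its reads in each library. Over 17 matched genes (CLDN4, CLDN12 and 15 others, among them CLDND1, a claudin-domain gene), CLDN12 supplied 42.2% and 41.1% of the family's reads in AG, and 9.68% and 12.1% in GG. CLDN4 supplied 0.0478% and 0.0712% in AG, and 20.2% and 33.6% in GG. The shares depend on gene lengths, which were not known, so each is compared between libraries only. Of the 15 others, 6 were tested and 2 were called, both higher in GG, where 6.34% of all tested genes were. CLDN7, a claudin of many epithelia, had 0 counts in AG and 161 in GG, which makes it at least 35.9-fold higher in GG, taking 3 counts over the AG group as the floor. With 1 library left out this bound lay between 14.95 (without AG replicate 2) and 42.7 (without GG replicate 2). The bound falls without an AG library because the same 3 counts are then set against fewer reads. The CLDN7 call ended without GG replicate 1 or 2. CLDN3, another sealing claudin, had 7 and 0 counts in AG replicates 1 and 2 and stood at 6.98 and 25.7 CPM in GG (6.14 ± 1.42 SE on the log2 scale, adjusted p = 0.0470). The CLDN3 call ended with limma-voom (adjusted p = 0.0614), with the replicate block (0.0569) and without GG replicate 1 or 2 (log2 fold change 6.78 and 4.82, adjusted p = 0.112 and 0.243). Without AG replicate 2 the log2 fold change was 5.02, and without AG replicate 1, where the AG library kept has 0 counts, the level in GG was at least 117-fold that in AG, with an adjusted p of 0.0174. CLDN10 and CLDN15 did not pass the test (-1.68 ± 0.77 and -0.63 ± 0.39 SE on the log2 scale).

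The keratin shares cover 30 matched genes and leave out KRT8 and 8 other keratins without a matched identifier. Among the 30, KRT18 supplied 39.5% and 11.4% of the reads in AG, and 70.6% and 83.7% in GG. KRT10, picked with its values in view, supplied 38.2% and 63.3% in AG and 21.9% and 12.9% in GG, while its level of 40.5 and 73.3 CPM in AG and 51.2 and 54.5 CPM in GG was not called. Of the 28 matched keratins other than KRT18 and KRT19, only 5 had enough reads to be tested. Of these 5, 1 was called, on the AG side, where 6.58% of all tested genes were. This was KRT222, a keratin-like gene without the full rod of other keratins, higher in AG at 9.40 and 25.4 CPM against 2.71 and 1.16 CPM (-3.18 ± 0.74 SE on the log2 scale, adjusted p = 0.0476; 0.0646 with the replicate block, and -2.32 and -3.90 without AG replicate 2 and GG replicate 1). KRT23 and KRT7, keratins of simple epithelia and trophoblast, had 6 and 5 counts in AG and 200 and 71 in GG, and were not called (log2 fold change 4.21 ± 1.39 and 3.29 ± 1.23 SE, adjusted p = 0.101 and 0.133). KRT23 was called under 3 of 11 settings, with DESeq2, without a filter on low counts and without AG replicate 1, and KRT7 under 1 of 11, without AG replicate 2 (adjusted p = 0.0181 to 0.427 and 0.0458 to 0.483 over the settings). In both of those fits without an AG library, the AG library kept has 0 counts; with the other AG library left out the log2 fold changes were 3.11 and 2.43.

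**Figure D4:**
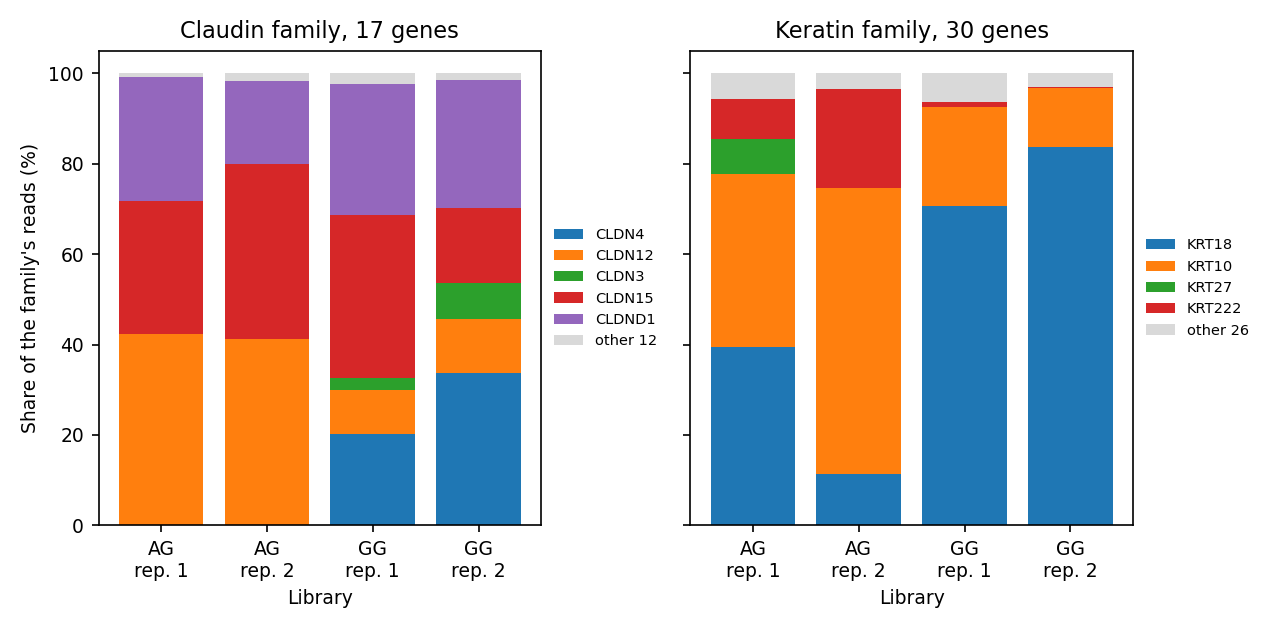
Share of the reads of the matched genes of a family, in percent, supplied by each gene in each of the 4 libraries (bars). Unmatched genes, KRT8 among them, are not counted. Genes above 5% in some library are coloured and the rest are grey. CLDN12 takes about 4 in 10 claudin reads in AG and CLDN4 between 20.2% and 33.6% in GG, and KRT18 takes 70.6% and 83.7% of keratin reads in the GG libraries.

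Other genes of junctions, adhesion, filaments and their control were taken from 13 lists that together hold 221 genes. Of these, 185 were matched and 113 tested, and 12 (10.6%) were called higher in GG and 6 (5.31%) higher in AG, where 6.34% and 6.58% of all tested genes were. Over the 113 the median log2 fold change was 0.29. The lists, too, were chosen with earlier results of these data known. Without GG replicate 1 or GG replicate 2, nearly all of these 18 called genes lost their call, as did most genes called over the whole series. ELF3 kept it without GG replicate 1 (adjusted p = 0.0447) but not without GG replicate 2 (0.0608). None changed direction under any of the 12 settings.

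Scaffold proteins on the inner side of the tight junction had 15 tested genes, of which 12 had a positive log2 fold change, where 51.1% of all tested genes did. Of the 15, 1 was called higher in GG and 1 higher in AG, beside 6.34% and 6.58% of all tested genes. YBX3, a cold-shock protein known to bind ZO-1, was higher in AG at 216 and 328 CPM against 111 and 106 CPM (-1.33 ± 0.29 SE on the log2 scale, adjusted p = 0.0428). AMOTL1, an angiomotin-like scaffold, had 3 counts in AG and 90 in GG, a ratio of 20.1 (exact 95% counting interval 6.66 to 99.2), and lost its call with limma-voom, after thinning to the smallest library, with the replicate block and without any 1 library (adjusted p = 0.0558 to 0.357). CGNL1, a cingulin relative, did not pass the test (1.89 ± 0.54 SE on the log2 scale, adjusted p = 0.0750) and was called under 3 of the 12 settings, with log2 fold changes from 1.39 to 2.33.

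Among the other membrane proteins of the tight junction, 0 of 5 tested were called by edgeR, where 12.9% of all tested genes were. Of the 5, 2 had an unadjusted edgeR p under 0.05. DESeq2 called 1 of the 5 and limma-voom 0, where they called 3333 and 2030 of all 13227 tested genes. JAM3, a relative of F11R, stood at 1.21 and 1.83 CPM in AG and 8.74 and 6.55 CPM in GG, with an adjusted p of 0.0537 (log2 fold change 2.32 ± 0.57 SE). JAM3 was called under 4 of 11 settings, with log2 fold changes from 2.05 to 2.63 (adjusted p = 0.00420 to 0.303). EPCAM, an epithelial adhesion protein, stood at 422 and 311 CPM in AG and 534 and 909.8 CPM in GG (adjusted p = 0.109). MARVELD2, the tricellulin of three-cell corners and a relative of occludin, had a log2 fold change of -0.72 ± 0.35, and LSR, which recruits tricellulin, one of -0.82 ± 0.35.

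For the apical polarity complexes, which position the tight junction, 0 of 12 tested were called by edgeR, where 12.9% of all tested genes were. Of the 12, 4 had an unadjusted edgeR p under 0.05. DESeq2 called 3 of the 12 and limma-voom 1, where they called 3333 and 2030 of all 13227 tested genes. PATJ, a multi-PDZ scaffold of the Crumbs complex, stood at 16.03 and 50.4 CPM in AG and 149.8 and 155 CPM in GG (2.20 ± 0.56 SE on the log2 scale, adjusted p = 0.0566). PATJ missed the threshold as reported and passed it under 8 of the 12 settings: DESeq2, limma-voom, no filter, a minimum mean of 10 CPM, thinning, the replicate block, and without AG replicate 1 or 2 (log2 fold change 1.59 and 3.23). Over the 12 settings its adjusted p ran from 0.000602 to 0.236 (without GG replicate 2). Log2 fold changes were -1.52 ± 0.53 for its partner PALS1 and -1.10 ± 0.34 for the atypical kinase gene PRKCI (adjusted p = 0.112 and 0.0905). PALS1 ranged from -0.75 without AG replicate 1 (adjusted p = 0.247) to -2.04 without AG replicate 2 (0.0141), and also passed with DESeq2 and without a filter. PRKCI ranged from -0.88 to -1.38 and passed with DESeq2 and without AG replicate 1 (adjusted p = 0.0244 and 0.0458).

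Adherens junction proteins, the partners of E-cadherin, had 17 tested genes, 14 of them with a positive log2 fold change (51.1% over all tested genes) and 2 called, both higher in GG, where 6.34% of all tested genes were. CTNNA1, which encodes the alpha-catenin that links the cadherin complex to actin, stood at 48.6 and 65.2 CPM in AG and 135 and 155 CPM in GG. All GG values were higher, by a log2 fold change of 1.35 ± 0.29 SE (adjusted p = 0.0403). PLEKHA7, of the apical adherens belt, had 0 counts in AG and stood at 4.23 and 1.16 CPM in GG, at least 27.4-fold higher. Most of its GG reads came from replicate 1: without GG replicate 1 the bound was 13.03 and the call ended (adjusted p = 0.263). The bound was 47.5 without GG replicate 2 (adjusted p = 0.124), and 16.02 and 11.4 without AG replicates 1 and 2, where 3 counts are set against fewer AG reads. VCL, which encodes vinculin, was not called (log2 fold change 1.46 ± 0.37 SE, adjusted p = 0.0564), and passed under 3 of the 12 settings, with log2 fold changes from 1.01 to 1.80. LIMD1, of the same list, went the other way without being called, with 69 counts in AG and 5 in GG. Its log2 fold change was -4.36 ± 1.25 SE (edgeR adjusted p = 0.0737), and it passed under 3 of 11 settings. Of the other classical cadherins, 0 of 9 tested were called by edgeR, where 12.9% of all tested genes were. Of the 9, 2 had an unadjusted edgeR p under 0.05. DESeq2 called 1 of the 9 and limma-voom 0, where they called 3333 and 2030 of all 13227 tested genes. CDH2, which encodes N-cadherin, stood at 4.35 and 0.609 CPM in AG and 9.31 and 9.89 CPM in GG (log2 fold change 1.97, adjusted p = 0.205). The difference depended on the AG libraries, with a log2 fold change of 3.96 without AG replicate 1 (adjusted p = 0.0146) and 1.12 without AG replicate 2 (0.147).

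Desmosomes, which anchor keratin filaments at the cell surface, had 3 of 10 tested genes called, all higher in GG, where 6.34% of all tested genes were. PKP2, a plakophilin of the desmosomal plaque, stood at 0.926 and 0.965 CPM in AG and 17.6 and 27.9 CPM in GG (4.58 ± 0.51 SE on the log2 scale, adjusted p = 0.0123). PKP4, a plakophilin-like protein, stood at 2.99 and 1.57 CPM in AG and 19.5 and 21.7 CPM in GG (3.18 ± 0.51, adjusted p = 0.0240). DSC2, a desmosomal cadherin, stood at 23.5 and 6.65 CPM in AG and 105 and 92.0 CPM in GG. As with KRT18, AG replicate 1 was the higher of the AG pair, and the log2 fold change of 2.71 ± 0.63 SE (adjusted p = 0.0470) became 3.88 without it and 2.05 without AG replicate 2. The DSC2 call ended with DESeq2 size factors (adjusted p = 0.0523). The plaque protein gene DSP and the desmosomal cadherin gene DSG2, both picked with their values in view, did not pass the test (log2 fold change 0.83 ± 0.35 and 0.46 ± 0.35).

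Intermediate filament genes other than keratins, with the linkers PLEC and DST, had 4 of 14 tested called, all higher in AG, where 6.58% of all tested genes were. DST, a spectraplakin that links filaments to other structures, stood at 44.2 and 37.4 CPM in AG and 3.61 and 2.66 CPM in GG (-3.70 ± 0.40 SE on the log2 scale, adjusted p = 0.0117). LMNA, which encodes the A-type lamins of the nucleus, stood at 48.9 and 54.5 CPM in AG and 4.70 and 13.03 CPM in GG (-2.54 ± 0.55, adjusted p = 0.0410; -3.49 without GG replicate 2). INA and PRPH, known as neuronal filament genes, were the other two. INA stood at 41.4 and 24.9 CPM in AG and 3.09 and 6.99 CPM in GG (-2.71 ± 0.56 SE on the log2 scale, and -3.46 without GG replicate 2), and PRPH had 82 counts in AG and 2 in GG, a ratio of 61.2 (exact 95% counting interval 16.4 to 514). VIM, the mesenchymal filament gene, picked with its values in view, stood at 27.4 and 44.4 CPM in AG and 9.26 and 14.9 CPM in GG, which did not pass the test (adjusted p = 0.0692).

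**Figure D5:**
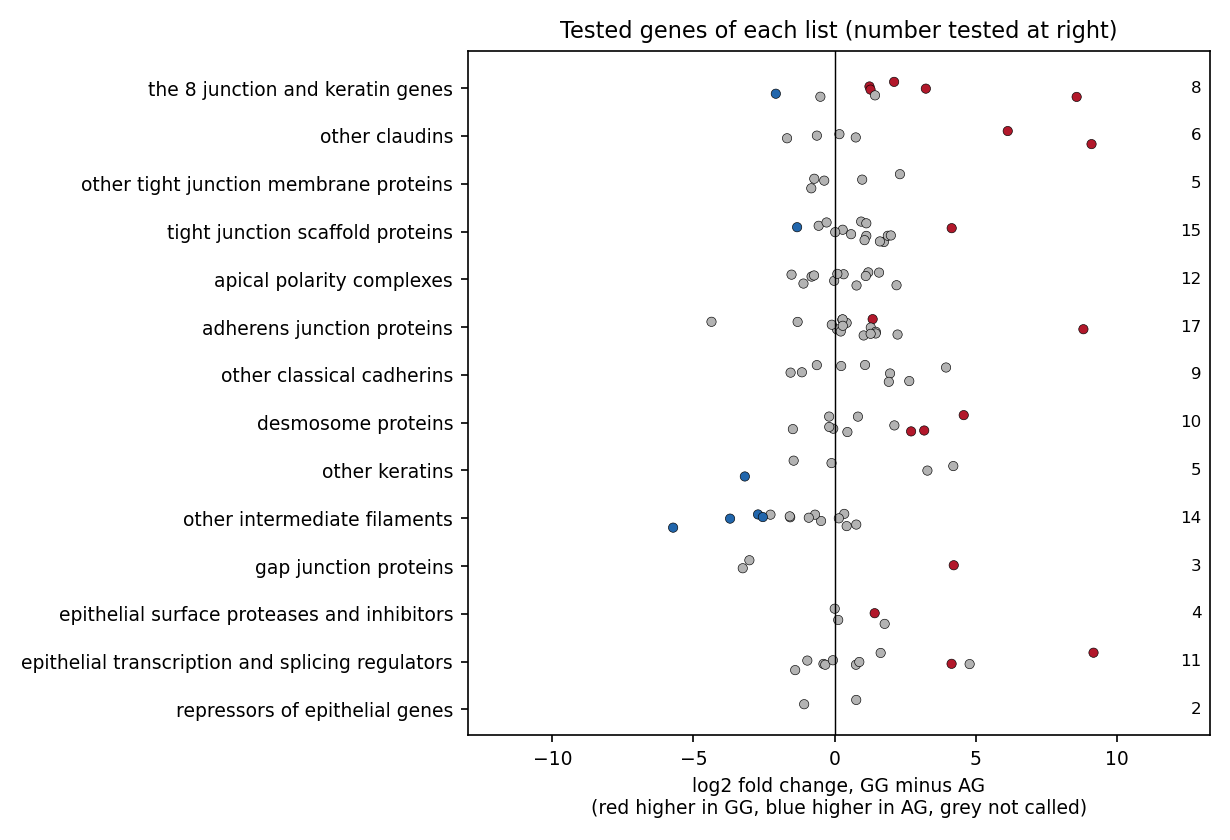
Log2 fold change, GG minus AG, of every tested gene (points) in the 8 genes described here and in 13 further lists (rows), with the number tested at the right; red points were called higher in GG, blue higher in AG, grey were not called. Desmosome and adherens junction calls are all on the GG side and those of intermediate filaments other than keratins all on the AG side; the points of CLDN7, PLEKHA7 and GATA2, with 0 counts in AG, depend on the prior count of the fit.

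For each called gene the 3 tested genes with the nearest pattern were found by the distance between log2 CPM values over the 4 libraries, each centred on its own mean. Nearest to CLDN4 were ACOX2 (distance 0.601), RRAGD (1.16) and BCL2L14 (1.17), all nearly without reads in AG. ACTR3, of the ARP2/3 complex that branches actin, was nearest to CDH1 (distance 0.123), at 82.3 and 107 CPM in AG and 314 and 438 CPM in GG, followed by LYPD6 and TGFBR1. Nearest to TJP1 were DNAJC16, BRCC3 and ACTN4, and nearest to F11R were FKBP2, ACTN4 and COX11. ACTN4, which encodes an alpha-actinin that crosslinks actin, thus stood near both, at distances of 0.116 and 0.101, and was not called itself (adjusted p = 0.0911). For CLDN12 the nearest were TBC1D2, ZBTB17 and POM121C (distances 0.138 to 0.160), and for KRT18 they included GGT1 and SERINC2 (0.282 and 0.287). With 4 libraries, many genes can share a pattern, so these distances are a description.

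Markers of other cell types that an embryo sample could carry were mostly near 0, with some exceptions that moved with the groups. Of 15 cumulus and granulosa markers, 11 were matched, FSHR had 0 counts in all libraries, and the summed level was 10.8 to 16.5 CPM in AG and 16.6 to 40.6 CPM in GG, most of it CYP11A1 and TNFAIP6. Of 10 markers of oviduct and uterine epithelium, 8 were matched and summed to 1.99 to 2.18 CPM in AG and 6.001 to 14.3 CPM in GG. MUC1 had 0 counts in all but GG replicate 2, with 5, and the epithelial gene WFDC2 made up most of the sum in GG. WFDC2 stood at 1.78 and 0.102 CPM in AG and 12.97 and 4.60 CPM in GG, which did not pass the test (adjusted p = 0.142), but passed under 3 of 11 settings: DESeq2 (0.0272), the replicate block (0.0465) and without AG replicate 1 (0.0224, log2 fold change 6.35 against 3.26 as reported and 2.26 without AG replicate 2). The part of these markers in the higher levels of CLDN4, KRT18 and CDH1 in GG was not tested.

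For the remaining marker lists, neither GG library had a higher sum than an AG library. All 10 fibroblast markers were matched and summed to 118 to 158 CPM in AG and 94.7 to 118 CPM in GG, nearly all of it PDGFRA, while COL3A1 and THY1 had 0 counts in all libraries. Blood cell markers, 10 of 12 matched, summed to 69.8 to 159 CPM in AG and 15.7 to 18.6 CPM in GG, and PTPRC supplied most of the AG sum. Of 6 tested, 5 had a negative log2 fold change and 2 were called, both higher in AG, where 6.58% of all tested genes were. LYZ alone went the other way, at 0.427 and 1.27 CPM in AG and 5.37 and 9.82 CPM in GG. It was not called by edgeR (adjusted p = 0.0533) but was by DESeq2 (adjusted p = 0.00148). CD68 had 0 counts in AG and in GG replicate 1. Sperm markers, 8 of 10 matched, summed to 23.2 to 23.3 CPM in AG and 21.1 to 23.0 CPM in GG, nearly all of it ODF2, while PRM2, TNP2, ODF1 and SMCP had 0 counts in all libraries. The part of the blood markers in the higher level of CLDN12 in AG was not tested.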

How the data were processed

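RNA of 4 macaque morula libraries was analysed from 1 table of estimated counts per Ensembl gene, deposited by the authors without scaling to library size. Per the submitters' processing notes, the tools included Salmon 0.12.0, STAR 2.6.0c and Trim Galore, and the build was rheMac8. Their role and order, the annotation and the strand setting (not given in the sources used here) stay unknown, so overlapping genes and near-identical copies are uncertain. The labels name no molecular identifiers. Symbols were matched by identifier (14654 of 21314, 68.8%), taking the identifier with most reads.

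Counts were rounded and tested with edgeR 4.0.16 in R 4.3.3 (quasi-likelihood F test on group, filterByExpr with minimum count 10 and total 15, TMM, Benjamini-Hochberg over 13227 genes). Standard errors and 95% intervals are those implied by F and its degrees of freedom. Alternatives used DESeq2 1.42.0, limma 3.58.1 and other scalings and filters. Distances used a prior count of 2, and ratios of reads a pseudocount of 0.5. Named genes were the 9, up to 4 tested genes with the smallest p from each of the other 19 lists, and 3 nearest patterns per called gene. CTNNB1, POU5F1, NANOG, SALL4 and genes marked as picked with their values in view fall outside that rule. So do FSHR, MUC1, COL3A1, THY1, CD68, PRM2, TNP2, ODF1 and SMCP, markers named because they had 0 or few counts. The genes and lists were chosen with earlier results of these data known. The values of 2 genes that this rule names are not reported here.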

Additional observations from a re-analysis of the deposited data

How the results depend on the processing

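Across all genes the number called was 1709, and it was 1697 with the replicate block, 3333 with DESeq2, 2609 without a filter on low counts and 84 to 3786 when 1 library was left out. The 5 genes called higher in GG became 1 to 5 and the 1 higher in AG 0 to 1 when 1 library was left out. In the 13 lists, the 12 called higher in GG became 24 with DESeq2 and 0 to 23 with 1 library left out. The 6 called higher in AG became 14 with DESeq2, 13 without a filter and 0 to 12 with 1 library left out. The cause of these shifts was not tested. Among the 18 called list genes, the block ended the calls of CLDN3, AMOTL1 and KRT222, and among the 8 genes that of TJP1. The replicate numbers are shared labels and do not show that libraries were paired: the deviations of same-numbered libraries correlated at 0.0986 across genes. Leaving out AG replicate 2 moved the median log2 fold change of all tested genes from 0.04 to 0.13. With a minimum mean of 10 CPM, KRT19 and 7 of the 18 called list genes were not fitted. With 2 libraries per group, differences near 1 on the log2 scale were close to the threshold: the smallest called was 0.89.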

Other observations

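Beyond the tight junction itself, the gap junction gene GJA1, which encodes connexin 43, was higher in GG, at 5.70 and 14.5 CPM in AG and 204 and 176 CPM in GG (4.23 ± 0.53 SE on the log2 scale, edgeR adjusted p = 0.0151; 5.04 without AG replicate 2). It was the only 1 called of 3 tested genes of a list of 16, where 6.34% of all tested genes were called higher in GG. The other 2 went the other way without being called. PANX1, a pannexin channel gene, stood at 6.34 and 8.33 CPM in AG and 1.28 and 0.273 CPM in GG (adjusted p = 0.0635), and GJC1, which encodes connexin 45, at 16.03 and 3.40 CPM in AG and 1.47 and 0.921 CPM in GG (adjusted p = 0.0788). Each was called higher in AG under 3 of 11 settings, DESeq2 among them (adjusted p = 0.00197 and 0.00415), and without AG replicate 1 the log2 fold change of GJC1 went from -3.02 to -1.52 (adjusted p = 0.222). Without GG replicate 1 or 2 the GJA1 call ended (adjusted p = 0.0743 and 0.0658).

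Regulators of epithelial genes had 2 of 11 tested called, both higher in GG, where 6.34% of all tested genes were. ELF3, an epithelial transcription factor, stood at 5.70 and 8.79 CPM in AG and 106 and 152 CPM in GG (4.15 ± 0.40 SE on the log2 scale, adjusted p = 0.00871). The trophectoderm factor gene GATA2 went from 0 counts in AG to 171 in GG, an increase of at least 38.2-fold. That bound was 15.9 without AG replicate 2 and 42.2 without GG replicate 2, and the GATA2 call ended without GG replicate 1 or 2. GRHL2, a grainyhead factor known for binding at CDH1 and claudin genes, had 14 and 0 counts in AG and stood at 9.64 and 16.6 CPM in GG. It was not called (log2 fold change 4.79 ± 1.40 SE, adjusted p = 0.0772), but passed without AG replicate 2 (log2 fold change 3.70, adjusted p = 0.0134), without AG replicate 1 (0.00663, at least 89.9-fold, the AG library kept being at 0), with DESeq2 (0.000578), with limma-voom (0.0403) and without a filter (0.0135), which are 5 of 11 settings; the highest adjusted p was 0.299, without GG replicate 2. TFAP2C stood at 104 and 110.1 CPM in AG and 48.1 and 61.7 CPM in GG (adjusted p = 0.0779). Of the repressors of epithelial genes, 0 of 2 tested were called by edgeR, DESeq2 or limma-voom (0 at an unadjusted p under 0.05). Over all 13227 tested genes these tests called 1709, 3333 and 2030. ZEB1 stood at 14.2 and 8.89 CPM in AG and 4.84 and 6.07 CPM in GG. Among surface proteases and their inhibitors, 1 of 4 tested was called, higher in GG, where 6.34% of all tested genes were. This was SPINT2, an inhibitor of matriptase-type proteases, at 72.3 and 120 CPM in AG and 234 and 282 CPM in GG (1.42 ± 0.33 SE on the log2 scale, adjusted p = 0.0474).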
